A study of Homo sapiens with 6 samples.

Results

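The genes described here are 10 members of the NF-kB system: the subunits NFKB1, NFKB2, REL, RELA and RELB, the feedback inhibitors NFKBIA, NFKBIE and TNFAIP3, and the targets TNFAIP2 and BIRC3. They were found by their symbols among the 19973 genes of the deposited table, and all 10 had enough reads to be compared. The members were selected on the read counts of the shNUF2 and shNC libraries, with the differences between them already known, so the counts, levels and fold changes of the members are a description and carry no test.

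RNA was sequenced from cells labelled OVCAR3, an established human ovarian cancer cell line, in 3 libraries with shNC, a hairpin with no intended target in cells labelled wild type, and in 3 libraries with shNUF2, a hairpin against the kinetochore gene NUF2. Both hairpins were expressed from a plasmid that also carries puromycin resistance, the cells of both groups were selected with puromycin as stable lines, and NUF2 was targeted by 1 hairpin. The labels number the libraries of each group 1 to 3 without saying whether they come from separate cultures, so p-values measure only the spread between these libraries, which may be technical. Total reads on genes ranged from 13057534 to 16995452 per library. Genes with at least 1 read numbered 14582 to 14691 in the shNC libraries and 15435 to 15536 in the shNUF2 libraries. The part of this difference in the results on genes with few reads was not tested.

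NUF2 itself had read counts of 903, 1096 and 1092 in shNC cells, compared with 281, 290 and 384 in shNUF2 cells, which was 65.2 ± 2.94 against 22.9 ± 2.4 CPM (counts scaled to a common library size, SD, n = 3 each), lower with shNUF2 as labelled. Of 8 markers of ovarian carcinoma looked up, the lineage factors WT1 and SOX17 were at or near 0 in every library labelled OVCAR3, with at most 7 and 14 reads, and EPCAM was low with 44 to 91. These levels bear on whether the cells are the line the labels name, which was not tested. The 8 markers summed to between 876 and 936 CPM with shNC and between 1108 and 1163 CPM with shNUF2. Of the 6 tested, 4 rose (KRT8, KRT18, PAX8 and EPCAM, by 0.55 to 1.04 on the log2 scale) and 2 fell (MSLN and MUC16, both at -0.75) at a BH-adjusted p under 0.05 from edgeR, which 33.9% of all genes tested passed upward and 33.8% downward. Immune markers were at or near 0, with at most 11 reads for any of 7 genes, and summed to between 0.352 and 1.05 CPM with shNC and between 1.66 and 2.62 CPM with shNUF2. The stromal and endothelial markers summed to between 83.7 and 89.8 CPM with shNC and between 65.4 and 71.7 CPM with shNUF2, most of it COL1A1. The endothelial gene CDH5 went the other way, with 1, 1 and 4 reads against 15, 19 and 27, and had enough reads for a test only through the shNUF2 libraries. The endothelial gene PECAM1 was at -0.02 on the log2 scale (standard error 0.30). The part of these markers in the results was not tested. In bulk RNA, fewer cells of a kind and less RNA per cell cannot be told apart.

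NF-kB transcription factors are dimers of 5 related proteins. RELA, RELB and REL carry a transactivation domain, while NFKB1 and NFKB2 are made as the precursors p105 and p100 and processed to p50 and p52. In resting cells the dimers are held in the cytoplasm by I kappa B proteins such as those encoded by NFKBIA and NFKBIE. Signals from tumor necrosis factor or interleukin-1 receptors activate a kinase complex that marks these inhibitors for degradation, and the freed dimers bind kappa B sites in DNA and switch on inflammatory and survival genes. Several of those genes encode inhibitors of the pathway, among them NFKBIA and TNFAIP3, which closes a feedback loop, and the noncanonical branch instead releases RELB by the processing of NFKB2.

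All 5 subunits were higher with shNUF2 than with shNC, by between 1.21 and 1.97-fold. RELA, which encodes p65 (chromosome 11, 65653597 to 65663090, in GRCh38 as for all positions), was counted 2443, 2746 and 2868 times in the shNC libraries and 4761, 4226 and 4923 times in those of shNUF2. No shNUF2 library came near the shNC range, and normalised reads went from 170.0 ± 2.96 to 335 ± 15.6 CPM (SD, n = 3), a log2 fold change of 0.98 (standard error 0.04).

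The remaining subunits differed less. NFKB1 (chromosome 4 from 102501331 to 102617302) yielded 636, 824 and 830 reads for shNC against 904, 825 and 951 for shNUF2. The raw reads overlapped, but after normalisation the lowest shNUF2 library was above the highest shNC library, at 64.6 ± 2.15 against 48.2 ± 3.41 CPM, a log2 fold change of 0.42 (standard error 0.06). NFKB2 (chromosome 10 from 102394110 to 102402524) had read counts of 2784, 3173 and 3468 in shNC cells, compared with 3392, 3187 and 3730 in shNUF2 cells. Relative to its level it had the smallest spread of the subunits (coefficients of variation of 1.45 and 1.3%), 199 ± 2.88 against 248 ± 3.23 CPM, and its log2 fold change was 0.32 (standard error 0.04).

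RELB (chromosome 19 from 45001449 to 45038198), the partner of processed NFKB2 in the noncanonical branch, was counted 404, 401 and 536 times in the shNC libraries and 597, 497 and 528 times in those of shNUF2. The normalised groups did not overlap but came close, the highest shNC library being at 31.2 CPM and the lowest shNUF2 library at 35.1 CPM, and the log2 fold change was 0.47 (standard error 0.09). REL (chromosome 2 from 60881521 to 60931612), which encodes c-Rel and is best known from lymphoid cells, had the fewest reads, 209, 284 and 295 with shNC and 296, 255 and 276 with shNUF2. Its highest shNC library reached 17.8 CPM and its lowest shNUF2 library 18.4 CPM, so the difference of 0.27 on the log2 scale (standard error 0.11) was the smallest of the 10 genes, with means of 16.5 ± 1.62 and 20 ± 1.83 CPM (SD, n = 3) that lie about as far apart as the SDs add up to. In GENCODE release 29 an exon of REL overlaps an exon of AC010733.2 on the same strand, and exons of RELA and of TNFAIP3 overlap an antisense gene each, AP001362.2 and AL357060.1. How the counting treated such reads is not given in the sources used here.

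**Figure D1:**
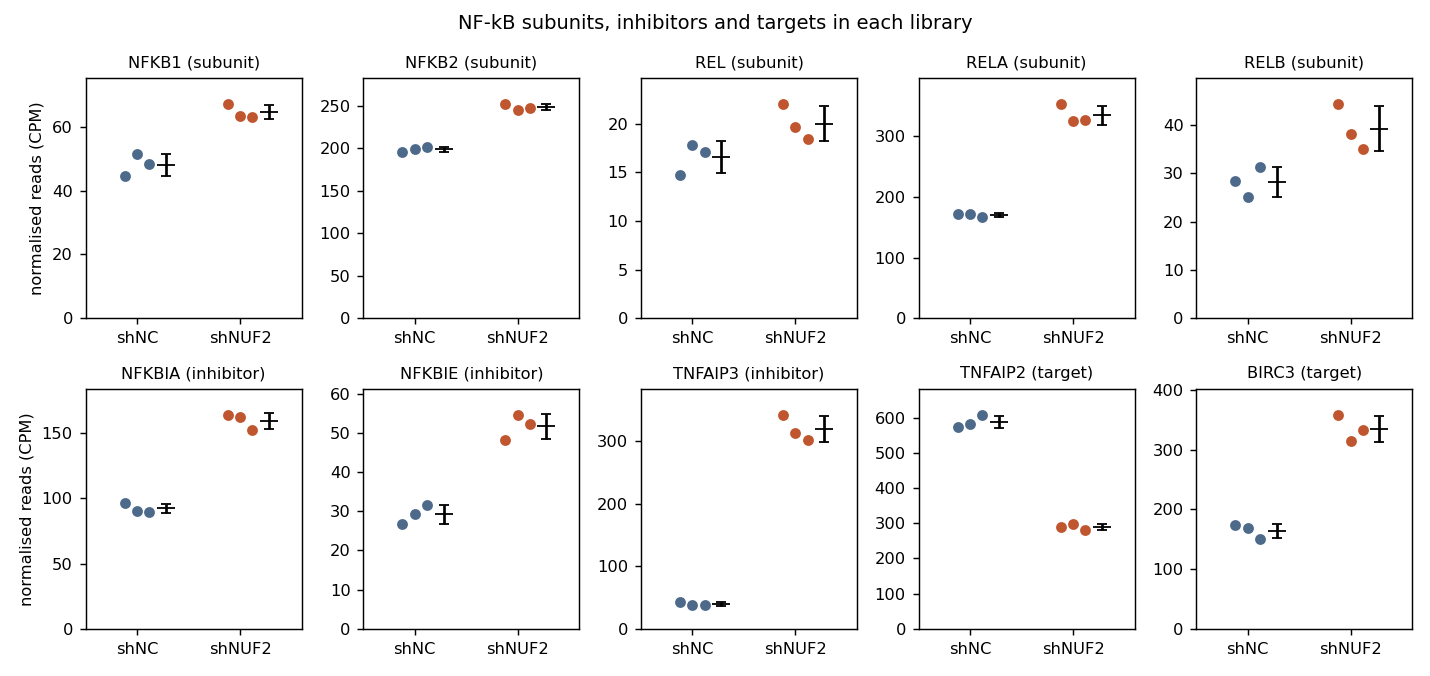
Normalised reads (CPM, linear axis from 0) of the 10 genes in each of the 3 shNC and 3 shNUF2 libraries. Points are libraries, and the bars beside them are the mean and SD. TNFAIP3 lies between 37.7 and 42.8 CPM with shNC and between 302 and 342 CPM with shNUF2, TNFAIP2 is the gene with all shNUF2 points below the shNC points, and REL and RELB have the narrowest gaps between the groups.

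RELA differed more than its partners, and the make-up of the subunit pool differed between the groups. Levels of different genes are compared here as FPKM, reads scaled by the deposited gene length and the library size, which depends on the length the authors listed. RELA made up 34.7, 34.4 and 33% of the summed FPKM of the 5 subunits with shNC and 44.6, 43.9 and 44.2% with shNUF2. NFKB2 went the other way, from 46.1 ± 0.186% to 38 ± 1.04% (SD, n = 3), so that RELA took its place as the subunit with the highest FPKM. NFKB1 made up 8.28 ± 0.558% and 7.32 ± 0.0419%, and REL 1.37 ± 0.126% and 1.09 ± 0.0612%, both lower in every shNUF2 library. The share of RELB overlapped between the groups, 10.2 ± 1.04% against 9.35 ± 0.771%. RELA per NFKB1 was 4.47, 3.88 and 4.03 with shNC and 6.13, 5.97 and 6.03 with shNUF2, while RELB per NFKB2 overlapped, at 0.222 ± 0.0224 and 0.247 ± 0.027. The summed FPKM of the 5 subunits was 92.6 ± 1.24 with shNC and 137 ± 4.17 with shNUF2.

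Kappa B sites, the DNA element the subunits bind, were looked for near the start sites of the members themselves. The motif searched was the kappa B consensus of 10 bases on either strand, in the window from 250 bases before to 50 after each start in RefSeq (GRCh38.p14). RefSeq windows were found for 8 of the 10 members, 12 windows in all, and RELB and NFKBIE had none in the table used. The consensus occurred in 7 of these 12 windows, in 11.3% of all 35116 windows and in 13.7% of the windows of tested genes. By gene, 6 of 8 members had a match in at least 1 window, against 13.3% of all genes with a window and 17.7% of the tested genes with one. A second search, for GGG, any 2 bases and then TTTCC on either strand, found the same 7 windows, 1.91% of all windows and 2.06% of those of tested genes. This string is called stricter here because fewer windows hold it. It is not a subset of the consensus, which needs a purine after GGG where the string takes any base. The matches of the subunit genes are shown because the genes that encode the binding proteins hold the motif themselves, written 5′ to 3′ on the strand that fits the motif:
NFKB1, from 49 bases before the start: GGGAATTTCC
REL, antisense to the gene and overlapping a sense match of the consensus, from 46 bases before the start: GGGAATTTCC
NFKB2, start 2, from 78 bases before it: GGGGCTTTCC
NFKB2, start 3, from 21 bases before it: GGGACTTTCC
NFKB1 and REL share the same 10 bases, at nearly the same distance from the start. NFKB2 has further matches of the consensus near starts 2 and 3 and none at start 1. RELA, which had the largest fold change of the subunits, had no match in either of its 2 windows. A match is a string of letters, and no binding was measured here.

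**Figure D2:**
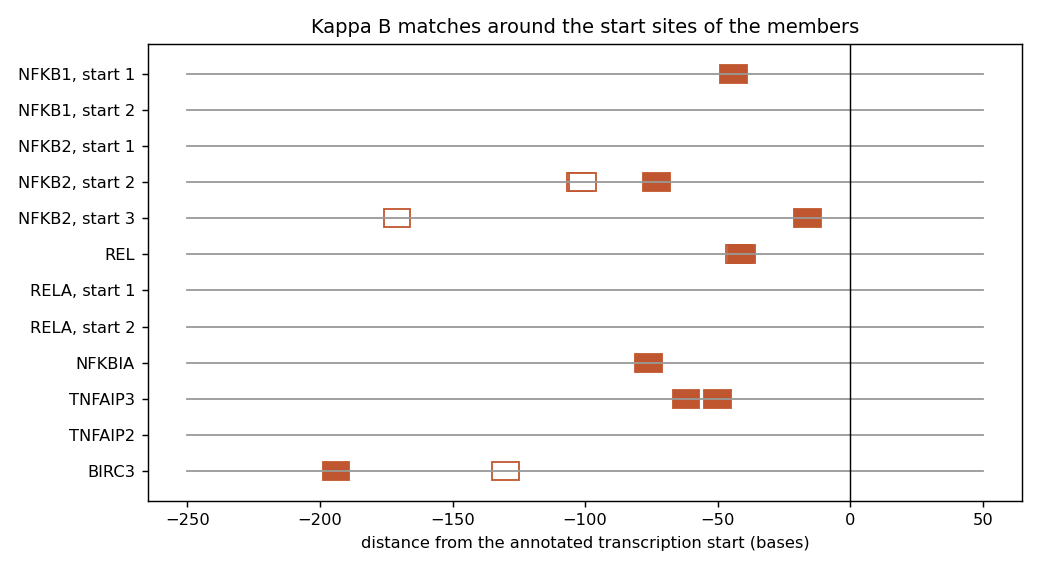
Positions of kappa B matches from 250 bases before to 50 after each RefSeq start of the 8 members with a window, as distance from the start in bases. Filled boxes also match the stricter string, open boxes match the consensus only, and overlapping matches on opposite strands are drawn over each other. The 2 boxes of TNFAIP3 lie side by side, and the lines of RELA and TNFAIP2 are empty.

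All 3 feedback inhibitors were higher with shNUF2, and TNFAIP3 had by far the largest fold change of the 10 genes. TNFAIP3 (chromosome 6 from 137867214 to 137883312) encodes A20, an enzyme that edits ubiquitin chains on signaling proteins and shuts off NF-kB activation by tumor necrosis factor. It yielded 609, 620 and 648 reads for shNC against 4616, 4074 and 4548 for shNUF2. The groups were far apart, 39.8 ± 2.72 against 319 ± 20.7 CPM (SD, n = 3), an 8.03-fold difference or 3.01 on the log2 scale (standard error 0.06). It ranked 138 by increase among the 12874 genes tested.

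NFKBIA (chromosome 14 from 35401513 to 35404749) encodes I kappa B alpha, the main inhibitor of RELA dimers. It had read counts of 1373, 1448 and 1541 in shNC cells, compared with 2213, 2100 and 2283 in shNUF2 cells, which was 92.3 ± 3.78 against 159 ± 6.53 CPM, a log2 fold change of 0.79 (standard error 0.05). NFKBIE (chromosome 6 from 44258166 to 44265788) encodes I kappa B epsilon, which also binds REL and RELA. Its read counts were 379, 470 and 542 for shNC against 650, 709 and 785 for shNUF2. The log2 fold change, 0.82 (standard error 0.08), was within the errors of that of NFKBIA, and neither gene overlapped between the groups.

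The inhibitors were also set against the pool of subunits. NFKBIA and NFKBIE together had 0.564, 0.543 and 0.54 FPKM per subunit FPKM with shNC and 0.606, 0.658 and 0.622 with shNUF2, higher in every shNUF2 library but by little. Against RELA alone NFKBIA was lower, with 1.29, 1.21 and 1.24 FPKM per RELA FPKM with shNC and 1.07, 1.14 and 1.07 with shNUF2. TNFAIP3 went from 0.0865 ± 0.00678 to 0.458 ± 0.0131 FPKM per subunit FPKM (SD, n = 3).

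The 250 bases before the RefSeq starts of both genes are shown because kappa B matches, in capitals, lie in each of them within 81 bases of the start:
TNFAIP3, chr6:137867009-137867258, plus strand: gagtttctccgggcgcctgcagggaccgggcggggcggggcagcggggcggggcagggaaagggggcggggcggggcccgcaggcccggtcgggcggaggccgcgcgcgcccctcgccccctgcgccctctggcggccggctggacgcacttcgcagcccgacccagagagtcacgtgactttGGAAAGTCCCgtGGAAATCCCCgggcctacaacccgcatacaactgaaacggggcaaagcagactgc
NFKBIA, chr14:35404750-35404999, minus strand: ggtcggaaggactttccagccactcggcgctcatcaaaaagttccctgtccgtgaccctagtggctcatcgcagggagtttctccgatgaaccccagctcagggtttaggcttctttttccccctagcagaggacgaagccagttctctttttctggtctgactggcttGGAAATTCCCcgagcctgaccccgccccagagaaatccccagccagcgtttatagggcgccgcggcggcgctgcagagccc
TNFAIP3 has a pair of matches separated by a dinucleotide, both on the strand opposite to the gene and both of the stricter form. NFKBIA has 1 match, also on the opposite strand, whose 10 bases read on that strand are GGGAATTTCC, the bases found in NFKB1 and REL. TNFAIP3 and NFKBIA, which differ in fold change by 3.01 against 0.79 on the log2 scale, thus both hold the stricter string close to the start.

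The targets differed in opposite directions. BIRC3 (chromosome 11 from 102317450 to 102339403) encodes cIAP2, a ubiquitin ligase of the tumor necrosis factor receptor complex and an inhibitor of cell death. It was counted 2463, 2677 and 2605 times in the shNC libraries and 4827, 4080 and 4993 times in those of shNUF2. Normalised reads were 164 ± 11.3 and 335 ± 22.2 CPM, with no overlap, and the log2 fold change was 1.03 (standard error 0.05). Its paralog and neighbour BIRC2, which starts 7.81 kb beyond the end of BIRC3, had a log2 fold change of 0.31 (standard error 0.05), and BIRC3 per BIRC2 went from 1.21 ± 0.105 to 1.99 ± 0.0527 in FPKM.

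TNFAIP2 (chromosome 14 from 103121476 to 103137439), named for its induction by tumor necrosis factor and linked to membrane protrusions, was the only one of the 10 genes that was lower with shNUF2. It yielded 8164, 9316 and 10459 reads for shNC against 3915, 3868 and 4215 for shNUF2. With 588 ± 17.5 against 289 ± 8.72 CPM (SD, n = 3), its level was 2.03-fold lower and its log2 fold change -1.02 (standard error 0.04). TNFAIP3 per TNFAIP2 was 0.0751, 0.067 and 0.0624 in FPKM with shNC and 1.19, 1.06 and 1.09 with shNUF2, so the order of these genes reversed.

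Of the 20 nearest tested neighbours of the 10 members, 1 on each side, 10 differed in the direction of their member, 2 in the opposite direction, and 8 did not pass. The threshold was a BH-adjusted p under 0.05 from edgeR. Of all genes tested, 33.9% passed it upward and 33.8% downward, so such differences were common. The neighbours in the same direction belonged to 8 members. The 2 in the opposite direction were KAT5 beside RELA, at -0.47 on the log2 scale (standard error 0.11), and RALGAPA1 beside NFKBIA, at -0.76 (standard error 0.07). On the other side of these members, SIPA1, 2.68 kb from RELA, was at 0.69 (standard error 0.05) and PSMA6 at 0.63 (standard error 0.18). The neighbours of NFKBIE, SLC35B2 at -0.09 (standard error 0.05) and AARS2 at -0.15 (standard error 0.08), did not pass. PSD, 93 bp from NFKB2, was at 1.02 (standard error 0.35), and GBF1, on the other side of NFKB2, was at 0.46 (standard error 0.05). The nearest tested neighbour of TNFAIP2, EXOC3L4, ends 10.9 kb before it and also fell, at -1.77 on the log2 scale (SE 0.24; BH-adjusted p = 3.76e-07, quasi-likelihood test of edgeR). On the other side EIF5, 196 kb away, had -0.25 (standard error 0.05). The nearest tested neighbours of TNFAIP3, at 648 kb and 205 kb, were IFNGR1 at 0.07 (standard error 0.06) and PERP at 0.57 (standard error 0.04). YAP1, on the other side of BIRC3 from BIRC2, was at -0.01 (standard error 0.05).

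The windows before the starts of the targets are shown beside those, with kappa B matches, where there are any, in capitals:
BIRC3, chr11:102317234-102317483, plus strand: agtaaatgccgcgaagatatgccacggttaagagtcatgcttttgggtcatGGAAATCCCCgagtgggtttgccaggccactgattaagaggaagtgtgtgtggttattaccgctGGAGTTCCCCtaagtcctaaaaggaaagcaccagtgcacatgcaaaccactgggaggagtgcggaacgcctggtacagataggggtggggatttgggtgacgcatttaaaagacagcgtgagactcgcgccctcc
TNFAIP2, chr14:103123211-103123460, plus strand: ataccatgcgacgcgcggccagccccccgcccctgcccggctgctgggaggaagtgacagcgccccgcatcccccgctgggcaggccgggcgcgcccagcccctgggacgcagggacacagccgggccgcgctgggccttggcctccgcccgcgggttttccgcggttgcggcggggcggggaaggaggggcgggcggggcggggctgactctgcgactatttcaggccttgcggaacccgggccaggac
BIRC3 has a match of the stricter form from 199 bases before the start and a second match of the consensus from 135 bases before it. The window of TNFAIP2 holds neither string, which says only that these letters are not in it. This window lies inside TNFAIP2 as the deposited table places the gene, so another start further upstream is not covered.

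Differentially expressed genes (DEGs) were called at a fold change beyond 1 in either direction with an unadjusted p under 0.05, thresholds taken from the study, whose text names no scale and which were read here as log2. They were reached by 2 of the 10 members upward, TNFAIP3 and BIRC3, and by 1 downward, TNFAIP2. Of all 12874 genes tested, 9.41% passed upward and 4.16% downward. BIRC3 at 1.03, TNFAIP2 at -1.02 and RELA at 0.98 lie next to the threshold, and BIRC3 was below it, leaving 1 member called upward, without shNC replicate 3 (log2 fold change 0.97), without shNUF2 replicate 1 (0.98) and with counts scaled by library totals only (0.99). RELA passed, making 3 members called upward, when at least 1 CPM was required in every library (1.00). The CPM of the groups did not overlap for any member, with shNUF2 above in 9 and below in 1. Of all genes tested, 35.2% had every shNUF2 library above and 35.4% every shNUF2 library below, so groups without overlap were common.

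**Figure D3:**
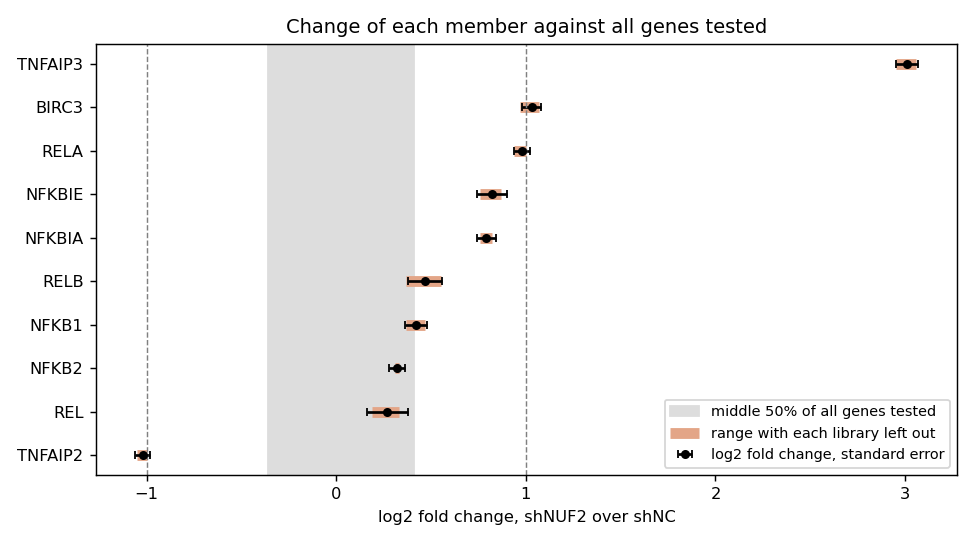
Log2 fold change of each member between shNUF2 and shNC with its standard error, drawn over the range obtained by omitting single libraries. The grey band holds the middle 50% of all genes tested, from -0.36 to 0.41, and dashed lines mark -1 and 1. REL and NFKB2 lie inside the band, NFKB1 at its edge, and TNFAIP3 far to the right of all others.

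The spread between libraries of a group differed among the members, and for some it was larger than counting alone gives. TNFAIP3 varied by 6.84% with shNC and 6.48% with shNUF2 (coefficient of variation of CPM, n = 3), where counting error alone is 4 and 1.51%. For BIRC3 the values were 6.9 and 6.64% against counting errors of 1.97 and 1.47%. NFKB2 varied by 1.45 and 1.3%, below its counting errors of 1.78 and 1.71%. RELB varied most, by 10.8 and 11.9%, against 4.73 and 4.3% from counting.

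In order of FPKM with shNC, TNFAIP2 stood first at 118 ± 3.68, followed by NFKB2 at 42.7 ± 0.743, NFKBIA at 39.4 ± 1.46, RELA at 31.5 ± 0.576 and BIRC3 at 22.1 ± 1.5 (SD, n = 3). The libraries of these 5 genes did not overlap. NFKBIE at 11.5 ± 0.984, RELB at 9.47 ± 0.995, TNFAIP3 at 8.01 ± 0.517 and NFKB1 at 7.67 ± 0.583 formed a run in which each neighbouring pair overlapped, and REL was apart and last at 1.27 ± 0.131. With shNUF2, NFKBIA at 66.2 ± 2.6, TNFAIP3 at 62.7 ± 3.61 and RELA at 60.6 ± 2.28 stood first, with overlapping neighbours. TNFAIP2 at 56.5 ± 1.95, NFKB2 at 52.0 ± 0.188 and BIRC3 at 43.9 ± 2.5 came next, then NFKBIE at 19.8 ± 1.41, RELB at 12.8 ± 1.44, NFKB1 at 10 ± 0.252 and REL at 1.5 ± 0.127. TNFAIP3 thus moved from among the lower genes to the top of the order, and TNFAIP2 lost its place at the head.

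**Figure D4:**
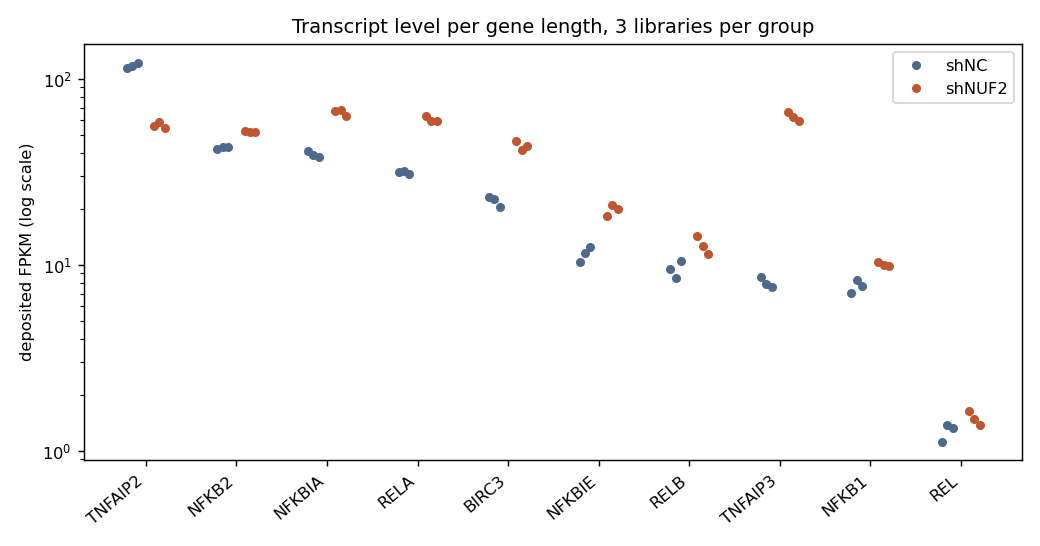
Deposited FPKM of the 10 genes (log axis) in 3 shNC and 3 shNUF2 libraries, ordered by the shNC mean. TNFAIP3 moves from the level of NFKB1, 8.01 against 7.67, to that of NFKBIA, and TNFAIP2 goes from 118 to 56.5.

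The genes whose pattern over the 6 libraries was most like that of TNFAIP3, by the Euclidean distance of centred log2 CPM among 11775 other genes with at least 1 log2 CPM on average, were FOSB (distance 0.14), SEMA7A (0.19), MDGA1 (0.19), HDAC9 (0.22) and CRISPLD2 (0.25). FOSB had read counts of 47, 48 and 50 in shNC cells, compared with 335, 328 and 345 in shNUF2 cells, and the log2 fold changes of the 5 genes lay between 2.95 and 3.08. None of the other members was among them. With only 2 groups of libraries, this measure mostly finds genes with the same fold change.

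Further genes of the pathway were taken from lists by role, which were drawn up with earlier results of these libraries known. Other inhibitors and modulators of NF-kB were higher more often than lower. Of 18 genes, all tested, 4 rose past the DEG thresholds and 0 fell past them, against 9.41% and 4.16% of all genes tested. At an adjusted p under 0.05 in the quasi-likelihood test of edgeR (Benjamini-Hochberg, BH, over all genes) with any size of change, 14 rose and 2 fell, against 33.9% and 33.8% of all genes tested, and the median log2 fold change was 0.47 against -0.01 for all genes. At an unadjusted p under 0.05, 2 were lower, and DESeq2 also called 0 lower.

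NFKBIZ rose most clearly, with 600, 612 and 648 reads for shNC against 2604, 2537 and 2722 for shNUF2, a log2 fold change of 2.27 (standard error 0.06; BH-adjusted p = 3.19e-22, quasi-likelihood test of edgeR). It encodes a nuclear I kappa B protein that acts as a cofactor for some targets rather than as a cytoplasmic inhibitor. TNIP2 and TNIP3 encode partners of A20. TNIP2 rose by 1.65 on the log2 scale (standard error 0.08), and TNIP3 was counted 1, 0 and 0 times in the shNC libraries and 27, 33 and 23 times in those of shNUF2. TNIP3 was tested only through its shNUF2 reads, and 3 genes of the list were called without it when at least 1 CPM was required in every library. PDLIM2, which promotes the degradation of nuclear RELA, rose by 1.21 (standard error 0.15). With limma on log2 FPKM plus 1, 2 genes of the list were called, as PDLIM2 and TNIP3 were not. TNIP1 at 0.93, BCL3 at 0.82 and NFKBIB at 0.68 rose below the fold threshold. The genes that fell were COMMD1, at -0.61 (standard error 0.18), and N4BP1, at -0.22 (standard error 0.07). CYLD, a deubiquitinase, rose by 0.36, and OTULIN, which cuts linear ubiquitin chains, was at 0.00 (standard error 0.05, adjusted p = 0.95 from the same edgeR test).

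Kinases and adaptors between the receptors and the I kappa B proteins moved in both directions. Of 36 genes, 35 were tested, of which 4 rose past the DEG thresholds and 0 fell past them, against 9.41% and 4.16% of all genes tested, so the share that rose was near that of all genes. At an adjusted p under 0.05, 19 rose and 9 fell, against 33.9% and 33.8% of all genes tested, and the median log2 fold change was 0.18. Of the 35, 10 were lower at an unadjusted p under 0.05 in edgeR, and DESeq2 called 0 past the thresholds downward. TRAF1, an adaptor of tumor necrosis factor receptors, rose by 1.94 on the log2 scale (standard error 0.10). IRAK2, a kinase of the interleukin-1 receptor complex, rose by 1.36 (standard error 0.06), BCL10 by 1.33 (standard error 0.09) and the ubiquitin ligase PELI1 by 1.24 (standard error 0.09), with an adjusted p of at most 8.22e-12 for these 4 genes from the same edgeR test. The subunits of the canonical I kappa B kinase complex did not rise, with IKBKB at -0.55 (standard error 0.06), CHUK at -0.13 (standard error 0.07) and IKBKG at -0.10 (standard error 0.12). Among these only IKBKB fell at an adjusted p under 0.05 (adjusted p = 2.49e-08 from edgeR, against 0.11 for CHUK and 0.49 for IKBKG). The related kinase gene IKBKE rose by 0.28 (standard error 0.11; BH-adjusted p = 0.033 from edgeR). MAP3K14, the kinase that starts the noncanonical branch, fell by 0.40 and TRAF2 fell by 0.54, while MAP3K8, a kinase that binds p105, rose by 0.84. RNF31 had at most 18 reads and was not tested.

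Of 20 ligands and receptors that feed into NF-kB, 13 were tested, 7 of which rose past the DEG thresholds and 1 fell, against 9.41% and 4.16% of all genes tested. IL1A yielded 363, 339 and 315 reads for shNC against 2992, 2454 and 2963 for shNUF2, a log2 fold change of 3.23 (standard error 0.08). IL1B, the other interleukin-1 ligand, rose by 3.03 (standard error 0.11). The receptor genes TNFRSF1B at 1.70, TNFRSF11A at 1.6, IL1RAP at 1.27 and IL1R1 at 1.07 rose, whereas TNFRSF1A, the main receptor of tumor necrosis factor, fell by 0.14 (standard error 0.05; BH-adjusted p = 0.015 from edgeR). The ligand TNFSF14 rose by 2.08 (standard error 0.20), and TLR3, a sensor of double-stranded RNA, was the 1 gene that fell past the thresholds, at -1.58 (standard error 0.25). TNF itself was not tested: its counts were 0, 3 and 0 in shNC cells and 9, 7 and 5 after NUF2 knockdown, too few for a fold change. Past an adjusted p under 0.05, 8 rose and 2 fell, against 33.9% and 33.8% of all genes tested, with a median log2 fold change of 1.07 over the 13 genes. With limma on log2 FPKM plus 1, 4 were called higher and 0 lower, and IL1RAP (0.85), TNFSF14 (0.95), IL1R1 (0.50) and TLR3 (-0.50) were no longer past the fold threshold.

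Textbook NF-kB target genes were the list with most members past the thresholds. Of 37 genes, 34 were tested, 23 rose past the DEG thresholds and 0 fell past them, against 9.41% and 4.16% of all genes tested, and the median log2 fold change was 1.90. With at least 1 CPM required in every library 15 were called higher, since CXCL1, CXCL11, CCL20, CSF2, SELE, BCL2A1, PTX3 and MMP9, which were under 1 CPM in at least 1 shNC library, were then not tested. Under that requirement the 15 were of 25 genes tested (60%), against 6.46% of 11711 genes, and the median of the list was 1.20. With any size of change, 29 rose and 0 fell at an adjusted p under 0.05, against 33.9% and 33.8% of all genes tested. With at least 1 CPM in every library these were 21 and 0 of the 25 genes, against 34.6% of all genes in each direction. At an unadjusted p under 0.05, edgeR found 0 lower, and DESeq2 called 24 past the thresholds upward and 0 downward. Of the list, NFKBIZ, BCL3, TRAF1 and BIRC2 are also in the lists above.

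CXCL8, the neutrophil chemokine interleukin-8, had the smallest p of the list, with 96, 98 and 91 reads for shNC against 5939, 5224 and 5380 for shNUF2. This was a 66.0-fold difference and a log2 fold change of 6.05 (standard error 0.09; BH-adjusted p = 7.87e-27, quasi-likelihood test of edgeR). CCL20, a chemokine, rose by 5.08 (standard error 0.17) and IL6 by 3.75 (standard error 0.12). SOD2, the mitochondrial superoxide dismutase, rose by 2.13 (standard error 0.06), from 330.0 ± 31.9 to 1438 ± 103 CPM (SD, n = 3). PTGS2, the inducible cyclooxygenase, rose by 1.91 (standard error 0.06). The list was not uniform: CFLAR at -0.09 (standard error 0.07), NINJ1 at 0.06 (standard error 0.07), EBI3 at 0.05 (standard error 0.07), LCN2 at -0.20 (standard error 0.30) and CD83 at 0.20 (standard error 0.09) did not pass an adjusted p of 0.05 in either direction. TNFAIP2, a member of the 10 genes, stood opposite to the list.

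**Figure D5:**
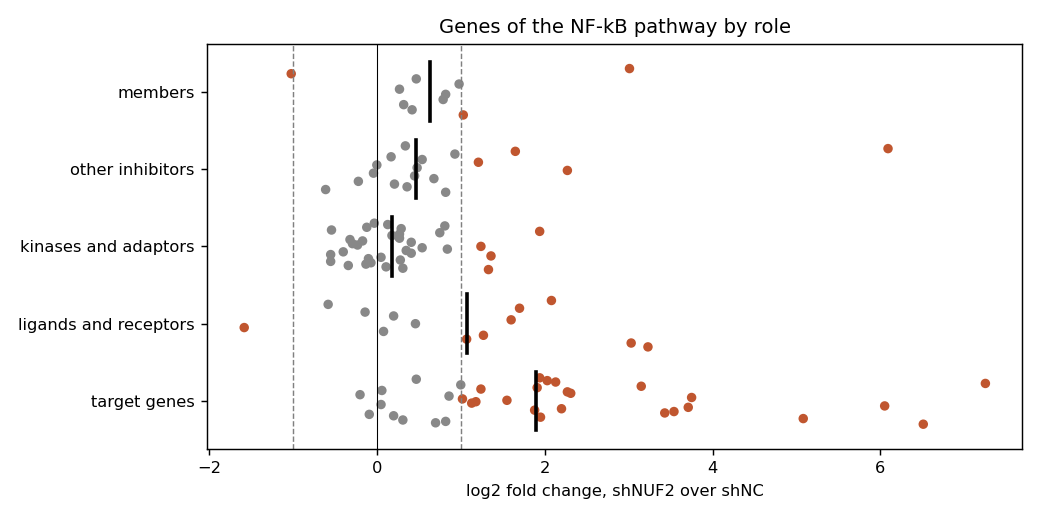
Log2 fold change between shNUF2 and shNC of the tested genes of each list, with the list's median as a black bar. Coloured points pass the DEG thresholds at the dashed lines, and grey points do not. The medians are 0.63 for the members, 0.47 for other inhibitors, 0.18 for kinases and adaptors, 1.07 for ligands and receptors and 1.90 for target genes.

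Kappa B matches were also counted for these lists. The consensus occurred at 1 or more starts of 19 of 32 target genes with a window (59.4%), of 8 of 17 other inhibitors (47.1%), of 4 of 16 ligands and receptors (25%) and of 5 of 31 kinases and adaptors (16.1%). It occurred for 20.6% of the 903 genes with a window that were called higher and for 17.7% of the 10297 tested genes with a window. The stricter string occurred in 7 of the 32 target genes, 4 of the 17 other inhibitors, 2 of the 31 kinases and adaptors and 1 of the 16 ligands and receptors. Among genes with a window, 2.99% of those called higher and 2.82% of those tested held it, so these 2 shares were close.

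The deposited table also pairs genes with gene ontology terms, and 4 terms on NF-kB were looked up after the table had been seen. Of 155 tested genes annotated to positive regulation of I kappa B kinase/NF-kB signaling, 15 (9.68%) were called higher, a share near the 9.41% of all genes tested. The term for its negative regulation had 5 of 40 (12.5%) called higher, positive regulation of NF-kB transcription factor activity 20 of 129 (15.5%) and its negative regulation 6 of 62 (9.68%). Of the 10 members, 3 carry the first of these terms, namely REL, RELA and BIRC3, and TNFAIP3 carries both terms for negative regulation.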

How the data were processed

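RNA of cells labelled OVCAR3 was sequenced from stranded mRNA libraries, 3 per group. Per the labels' processing notes, the authors used cutadapt, HISAT and HTSeq with GRCh38.p13, with versions and settings not given in the sources used here. The authors deposited read counts per gene without normalization, and FPKM, which equalled the count per kilobase and total to a relative deviation of at most 2.71e-07. Columns were matched to samples by the GEO description.

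Counts were filtered with filterByExpr, normalized by TMM and compared by the quasi-likelihood test of edgeR 4.0.16 (R 4.3.3) over 12874 genes, with Benjamini-Hochberg adjustment and no covariate. Standard errors are the fold change over the square root of F. CPM are TMM-scaled. Totals of 13057534 to 16995452 reads set the counting error. The members and gene lists were chosen with earlier results of these data known. Named genes are the members, NUF2, up to 6 DEGs with the smallest p per list and the 5 profiles nearest TNFAIP3. Genes named beyond this rule (neighbours, further list genes and markers) were chosen after their values were seen.

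Alternatives were DESeq2 1.42.0, other scalings and filters, limma 3.58.1 on log2 FPKM plus 1 or 0.1, a replicate block, adjusted p, and each library left out. On simulated counts edgeR recovered 196 of 200 changed genes among 12818. Motifs were searched in RefSeq windows (GRCh38.p14). Proteins were not analysed here.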

Additional observations from a re-analysis of the deposited data

How the results depend on the processing

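Every member kept the direction of its fold change under all alternatives, and 143 of the 150 values of members under alternatives stayed within 1 SD between libraries of the reported one. Members called higher numbered 1 in place of 2 with library totals only and with limma on log2 FPKM plus 1 or plus 0.1, and between 1 and 2 when single libraries were omitted, the lower value without shNC replicate 3 and without shNUF2 replicate 1. In each case BIRC3 was the gene lost, by a log2 fold change of 0.96 to 0.99. With at least 1 CPM required in every library the count was 3, as RELA, at 1.00, passed too. With limma on log2 FPKM plus 1, 430 genes were called higher and 206 lower in place of 1212 and 536, with 2 other inhibitors and 4 ligands and receptors higher and 0 ligands and receptors lower, as adding 1 shrinks the fold changes of genes with low FPKM. Requiring at least 1 CPM in every library left 756 genes and 15 target genes called higher, because genes near 0 in shNC libraries are then not tested. A fit with a replicate block called 1207 genes higher and 536 lower. Libraries of the same number did not deviate together (correlations of 0.02, 0 and -0.03), so the numbers were not taken as pairs. Of the other genes named by the rule of the processing section, 4 (IL1RAP, PDLIM2, TNFSF14 and TNIP3) missed the threshold with limma on log2 FPKM plus 1 and none changed direction. Genes named beyond that rule are not in this count. Some of them missed the threshold in that fit too, among them IL1R1 (0.50), TLR3 (-0.50) and KRT8 (0.99). Depth limits statements on genes with few reads, such as TNF, CD40 and TNIP3.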
